A study of Mus musculus with 6 samples.

Results

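Carboxylesterases are serine hydrolases that cleave ester bonds, and the mouse genome carries their genes as tandem copies on chromosome 8. The 10 genes described here are Ces1b, Ces1c, Ces1d, Ces1e, Ces1f, Ces1g, Ces2a, Ces3a, Ces3b and Ces4a, out of 20 carboxylesterase genes and 41838 genes in the deposited table. They were chosen by gene name, with the FPKM of both genotypes already known and with no stated threshold on a value, so every comparison of genotypes below describes these genes and is not independent evidence about them. The choice was not one of level alone, since Ces2e, Ces2c and Ces2g lie outside it and averaged over 10 FPKM in each genotype.

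Messenger RNA had been sequenced from 3 Alkbh5-HKO livers and 3 Alkbh5flox/flox livers, from mice whose age the series text gives as 9 weeks and whose diet the labels give as normal chow. The labels also write the first genotype as Alkbh5-CKO. The sources used here do not spell out either abbreviation, and they do not give the Cre driver, the sex of the mice or the time and feeding state at collection. ALKBH5 is an enzyme that removes the N6-methyladenosine mark from RNA. The Alkbh5flox/flox mice carry a floxed Alkbh5 allele, and the 3 replicates of each group are called independent biological ones.

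In liver, carboxylesterases sit mostly in the lumen of the endoplasmic reticulum of hepatocytes, where they split drugs, prodrugs and xenobiotic esters and where several of them also act on triglyceride and cholesteryl ester. Some help to release stored triglyceride for lipoprotein assembly. Ces1c is an exception in mice, as its protein is secreted and accounts for much of the esterase activity of mouse plasma. Within the group, Ces1d is known as a triacylglycerol hydrolase, Ces1f as a close relative with similar activity, Ces1g as an esterase linked to lipid secretion, Ces2a as a hydrolase of glycerides and Ces1e as egasyn, which holds beta-glucuronidase in the endoplasmic reticulum.

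The reads counted for genes, as recovered from the deposited FPKM, numbered 15649531, 17034754 and 14907384 in Alkbh5-HKO livers 1 to 3. In Alkbh5flox/flox livers 1 to 3 they numbered 16956271, 15015208 and 15204835. Alkbh5 itself was at 0.508, 0.443 and 0.476 FPKM in Alkbh5-HKO livers, against 17.8, 16.8 and 14.8 FPKM in Alkbh5flox/flox livers, which fits the labels of all 6 libraries. Alkbh5-HKO library 1 stood apart from its group on the first principal component (-38.6, against -15.7 and -4.52 for the other Alkbh5-HKO libraries and 22.7, 22.5 and 13.7 for Alkbh5flox/flox), so members that rest on it are also given without it. The hepatocyte markers were abundant in every library, with Alb, Ttr, Apoa1 and 3 others summing to 50440 to 53560 FPKM in Alkbh5-HKO and 45170 to 56200 FPKM in Alkbh5flox/flox. Alb, the largest part of the sum, was the 1 marker that was higher, at 1.27 times its Alkbh5flox/flox mean without overlap. The 5 others were lower, with Apoa1 at 0.636 times without overlap. Tat (0.445), Cyp2e1 (0.743), Ttr (0.987) and Serpina1a (0.999) overlapped, and none of the 6 passed the threshold. Of the adipocyte markers, Lep and Retn were at 0 in all libraries, Adipoq and Plin1 had 1 read each over the Alkbh5-HKO libraries and 0 over the Alkbh5flox/flox libraries, and Cidec averaged 2.52 FPKM in Alkbh5-HKO and 7.72 FPKM in Alkbh5flox/flox livers. The 6 erythroid markers summed to 105 to 209 FPKM in Alkbh5-HKO and 352 to 674 FPKM in Alkbh5flox/flox, with 5 of 5 tested markers lower and 1 past the threshold (Hbb-bt), and their part in the results below was not tested. Summed markers of Kupffer cells (94.0 to 169 FPKM in Alkbh5-HKO, 88.0 to 138 FPKM in Alkbh5flox/flox), sinusoidal endothelium (14.6 to 16.5 and 14.3 to 18.8), stellate cells (54.8 to 62.6 and 33.0 to 59.3), cholangiocytes (1.30 to 3.20 and 1.46 to 2.69), lymphocytes (1.199 to 2.56 and 0.878 to 2.20) and pancreatic acinar cells (15.6 to 22.1 and 17.5 to 19.98, all of it Cela1) overlapped between the genotypes.

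FPKM counts fragments per kilobase of gene length, scaled to a size per library, so levels can be set beside each other between genes. The size used in the deposited values is not the sum of the recovered reads. Fold changes are given as log2 of FPKM + 1, Alkbh5-HKO minus Alkbh5flox/flox, with the standard error (SE), and adjusted p-values come from limma over the 10453 genes that averaged at least 1 FPKM, with Benjamini-Hochberg (BH) adjustment and a threshold of 0.05. All 10 carboxylesterases were among the tested genes. In a whole liver, fewer cells of a type and less RNA per cell cannot be told apart.

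The summed level of the 10 genes was 0.891 times that of Alkbh5flox/flox livers, and 0.936 times when scaled to the sum of recovered reads. The shares of single genes in it differed. Ces1b rose 2.72-fold in Alkbh5-HKO livers and Ces4a fell to 8.46% of its Alkbh5flox/flox level. Ces1g, at 1.98 times the Alkbh5flox/flox level, and Ces3b, at 0.506 times, lay apart between the genotypes in all libraries but did not pass over all genes. The most abundant members differed little or moderately, with Ces1c at 0.951 and Ces3a at 0.753 times the Alkbh5flox/flox mean. Of the 10 genes, 1 passed as higher, where 0.268% of all tested genes did, and 1 passed as lower, where 0.22% did. The one that passed as lower, Ces4a, reached the filter only through its level in Alkbh5flox/flox livers. With a library left out, Ces1b kept its call in 1 of 6 fits and Ces4a in 2 of 6. The genotypes did not overlap in 2 members that were higher and in 4 that were lower, against 12.8% and 12.6% of all tested genes. Nothing is read from these counts, since the genes were picked with this contrast in view. The median log2 fold change was -0.16 over the 10 members and -0.02 over all tested genes.

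**Figure D1:**
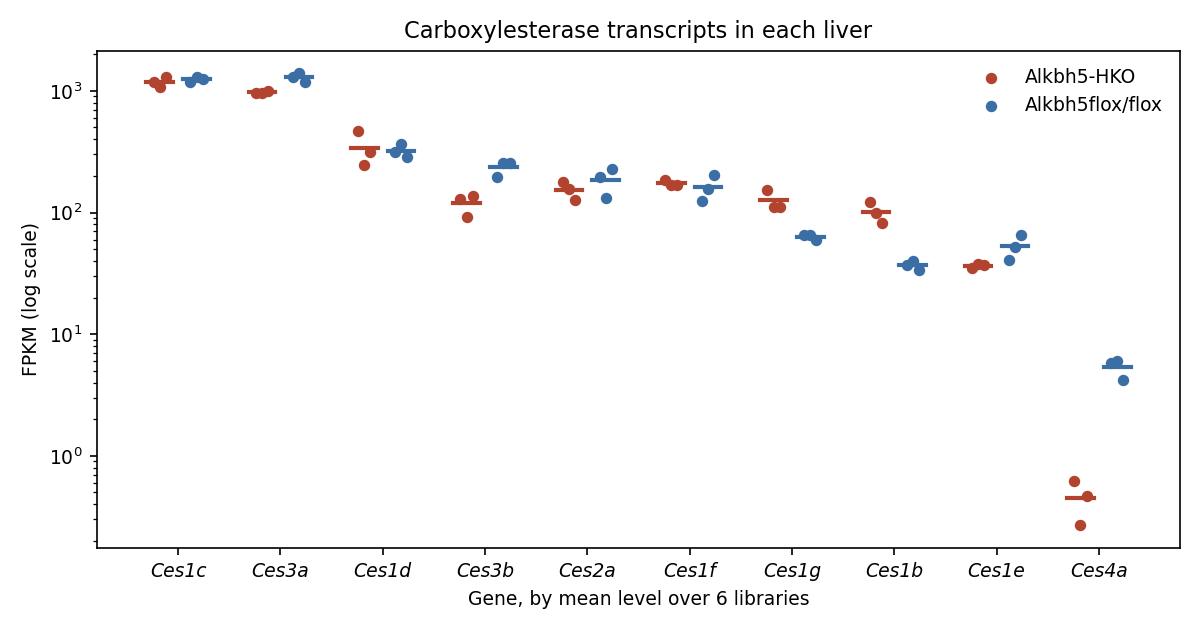
FPKM of the 10 carboxylesterases on a log scale, ordered by mean level, with 1 point per liver and a bar at the mean of each genotype (n = 3). Ces1c and Ces3a lie between 967 and 1393 FPKM in all livers, while Ces4a is below 1 FPKM in each Alkbh5-HKO liver and above 4 FPKM in each Alkbh5flox/flox liver.

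The secreted esterase Ces1c (chr8:93099015-93131283, minus strand, GRCm38.p6) was the most abundant member on average. Its level was 1172, 1068 and 1302 FPKM in Alkbh5-HKO livers, against 1179.8, 1297 and 1249.8 FPKM in Alkbh5flox/flox livers. The genotypes overlapped, and Alkbh5-HKO liver 3 was the highest of all 6. The log2 fold change was -0.08 (SE 0.14, 95% interval -0.41 to 0.26, limma BH adjusted p = 0.803), an interval that leaves out a change of 1.5-fold in either direction. With columns rescaled to TPM the value changed sign and was 0.000617.

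Ces1b (gene 382044, chr8:93056725-93080021, minus strand, 14 exons in its longest GENCODE M21 coding transcript) is the neighbour of Ces1c. It was at 123, 98.6 and 81.3 FPKM in Alkbh5-HKO livers, against 36.8, 40.2 and 34.0 FPKM in Alkbh5flox/flox livers. Each Alkbh5-HKO liver was thus above each Alkbh5flox/flox liver, with Alkbh5-HKO liver 1 the highest. The values rest on 10039 reads summed over the Alkbh5-HKO libraries and 3440 over the Alkbh5flox/flox libraries. Ces1b rose by a log2 fold change of 1.40 (SE 0.18, 95% interval 0.99 to 1.82, limma BH adjusted p = 0.0372). The call ended in 5 of the 6 fits that left out a library, at limma BH adjusted p of 0.0906 without Alkbh5-HKO library 1, 0.121 without Alkbh5-HKO library 2 and 0.158, 0.131 and 0.058 without Alkbh5flox/flox libraries 1, 2 and 3. It also ended with no filter on low values (0.118). Of 16 other settings 9 kept the call, and the log2 fold change was between 1.255 and 1.549 in all 16. Median-of-ratios scaling is among the 9 but nearly repeats the main fit (log2 1.405, limma BH adjusted p = 0.0372), so it is no separate check.

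Ces1b and Ces1c are close copies, with 91.2% identical bases over 1825 aligned bases of their transcripts and 118 bases in the longest identical stretch. Their start windows, which RefSeq places on GRCm38.p6 and which run from 250 bases before to 50 bases after the annotated start, are alike too: 253 of 273 aligned bases were the same. They are shown because the genes differed in the contrast, with Ces1b higher and Ces1c near its Alkbh5flox/flox level. Ces1b has another start window (185 of 197 aligned bases the same), and the one with more bases identical to Ces1c is printed. FPKM per gene do not tell at which start the transcripts began. Capitals mark bases that differ or have no partner in the other window. The Ces1b stretch is chr8:93079892-93080164 and the Ces1c stretch is chr8:93131234-93131533, each read 5′ to 3′ on the minus strand.
Ces1b: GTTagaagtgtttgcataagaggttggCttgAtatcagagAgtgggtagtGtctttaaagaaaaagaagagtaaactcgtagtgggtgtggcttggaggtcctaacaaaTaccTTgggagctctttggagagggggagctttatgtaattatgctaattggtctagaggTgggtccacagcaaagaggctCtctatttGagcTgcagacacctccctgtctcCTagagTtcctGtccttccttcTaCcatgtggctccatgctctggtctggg
Ces1c: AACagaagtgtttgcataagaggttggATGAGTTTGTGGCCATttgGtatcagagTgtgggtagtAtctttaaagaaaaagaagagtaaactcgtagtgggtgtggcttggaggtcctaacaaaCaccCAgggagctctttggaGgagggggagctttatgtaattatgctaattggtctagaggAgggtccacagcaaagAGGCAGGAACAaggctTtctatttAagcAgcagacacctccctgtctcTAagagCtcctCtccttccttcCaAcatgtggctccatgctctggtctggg

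Set against Ces1c in the same library, Ces1b was at a ratio of 0.105, 0.0923 and 0.0624 in Alkbh5-HKO livers and of 0.0312, 0.0310 and 0.0272 in Alkbh5flox/flox livers. The ratio was higher in each Alkbh5-HKO liver. How multi-mapping pairs were counted is not stated, so some reads of Ces1c, the far more abundant copy, may be counted for Ces1b or lost from both. An exact search of 150-base windows, the read length in the labels, found 0 of the 1815 windows of the Ces1b transcript in a transcript of another carboxylesterase.

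Ces1g (gene 12623, chr8:93302369-93337209, minus strand) lies at the other end of the Ces1 members. It was at 154, 112 and 111 FPKM in Alkbh5-HKO livers, against 65.0, 65.7 and 59.6 FPKM in Alkbh5flox/flox livers. The genotypes did not overlap, and as for Ces1b the highest value was in Alkbh5-HKO liver 1. The log2 fold change was 0.96 (SE 0.17, 95% interval 0.57 to 1.35) and did not pass, with a limma BH adjusted p of 0.0664. Without Alkbh5-HKO library 1 it was 0.81 (0.0942), and over all 16 other settings the adjusted p lay between 0.0501 and 0.208, short of the threshold each time.

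The remaining Ces1 genes lay between Ces1c and Ces1g on the chromosome and did not pass. The triacylglycerol hydrolase Ces1d was at 466, 246 and 315 FPKM in Alkbh5-HKO livers, against 314, 367 and 286 FPKM in Alkbh5flox/flox livers. Its log2 fold change of 0.04 (SE 0.24, limma BH adjusted p = 0.939) rested on Alkbh5-HKO liver 1, and was -0.20 without that library and -0.04 without Alkbh5flox/flox library 3. Ces1f, the related hydrolase, was at 186, 169 and 167 FPKM in Alkbh5-HKO livers, against 125, 157 and 202 FPKM in Alkbh5flox/flox livers. The Alkbh5-HKO values fell inside the wider span of the Alkbh5flox/flox values, the log2 fold change was 0.14 (SE 0.19, 95% interval -0.32 to 0.59, limma BH adjusted p = 0.744), and without Alkbh5flox/flox library 1 it was -0.04.

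Ces1e, or egasyn, was at 34.8, 38.0 and 37.2 FPKM in Alkbh5-HKO livers, against 40.9, 52.0 and 65.7 FPKM in Alkbh5flox/flox livers. Each Alkbh5-HKO liver was below each Alkbh5flox/flox liver, by a narrow gap, and the Alkbh5flox/flox livers spread more widely. The log2 fold change was -0.49 (SE 0.19, 95% interval -0.93 to -0.06, limma BH adjusted p = 0.241). Gusb, which encodes the beta-glucuronidase that egasyn binds, was at 10.3, 8.68 and 8.80 FPKM in Alkbh5-HKO livers, against 13.2, 10.7 and 8.63 FPKM in Alkbh5flox/flox livers, with overlap (log2 -0.19, limma BH adjusted p = 0.595). Within the Ces1 genes, the ratio of Ces1g to Ces1e was 4.43, 2.95 and 2.99 in Alkbh5-HKO livers. In Alkbh5flox/flox livers it was 1.59, 1.26 and 0.906. Since Ces1g was higher and Ces1e lower in every Alkbh5-HKO liver, this ratio had to lie apart and is no further result.

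RefSeq start windows were present for 7 of the 10 members, Ces1b having 2 of them. Motifs were searched on both strands, after the values were known: AGGTCA (a nuclear receptor half-site), TTATGTAA (a D-box, the element read by PAR bZIP factors and NFIL3), TGACNNNGC (core of the antioxidant response element) and CACGTG (an E-box). The letters TTATGTAA stood in the window of each Ces1 member that had one, Ces1b, Ces1c, Ces1e and Ces1g, and in that of Ces1a, which was barely detected, but not in that of Ces1h, whereas 0.938% of the 32851 mouse windows held them. They began 84 bases before the start in Ces1b (7 bases before its other start), 94 in Ces1c, 81 in Ces1e and 232 in Ces1g. The Ces1 genes are copies of each other, so these matches are not separate events, and genes that hold the letters were higher (Ces1b, Ces1g), near the Alkbh5flox/flox level (Ces1c) and lower (Ces1e). AGGTCA was in the windows of Ces2a and Ces4a, as in 16.3% of all windows, and no member window held TGACNNNGC (12.4% of all) or CACGTG (7.15% of all).

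The windows of Ces1g (chr8:93337160-93337459) and Ces1e (chr8:93229570-93229869), both minus strand, are shown because these Ces1 genes lay on opposite sides of their Alkbh5flox/flox level. Capitals mark TTATGTAA.
Ces1g: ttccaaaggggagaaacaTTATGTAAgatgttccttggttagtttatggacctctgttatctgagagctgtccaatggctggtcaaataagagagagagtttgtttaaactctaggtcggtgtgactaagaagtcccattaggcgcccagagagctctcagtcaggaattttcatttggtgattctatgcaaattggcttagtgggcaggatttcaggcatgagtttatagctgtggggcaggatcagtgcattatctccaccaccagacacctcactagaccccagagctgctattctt
Ces1e: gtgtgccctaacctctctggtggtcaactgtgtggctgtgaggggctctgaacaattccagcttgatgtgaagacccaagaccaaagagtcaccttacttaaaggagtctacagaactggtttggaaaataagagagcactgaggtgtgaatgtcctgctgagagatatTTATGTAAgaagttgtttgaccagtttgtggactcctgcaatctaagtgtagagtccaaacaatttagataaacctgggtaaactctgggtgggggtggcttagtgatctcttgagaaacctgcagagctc

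Ces2a was the 1 Ces2 gene among the 10. It was at 179, 155 and 126 FPKM in Alkbh5-HKO livers, against 197, 132 and 226 FPKM in Alkbh5flox/flox livers. The genotypes overlapped, and the log2 fold change was -0.25 (SE 0.23, 95% interval -0.80 to 0.30, limma BH adjusted p = 0.617).

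Ces3a, the second most abundant member on average, was at 968, 967 and 991 FPKM in Alkbh5-HKO livers, against 1305, 1393 and 1187 FPKM in Alkbh5flox/flox livers. Its Alkbh5-HKO values were the tightest of any member, with a coefficient of variation of 1.40%, and all lay below the Alkbh5flox/flox values. The log2 fold change was -0.41 (SE 0.14, 95% interval -0.72 to -0.09, limma BH adjusted p = 0.198). Its neighbour Ces3b (gene 13909, chr8:105083723-105093929, plus strand) was at 128, 91.5 and 137 FPKM in Alkbh5-HKO livers, against 194, 255 and 255 FPKM in Alkbh5flox/flox livers. The genotypes were again apart, with a log2 fold change of -0.99 (SE 0.20, 95% interval -1.46 to -0.51) and a limma BH adjusted p of 0.0834. Over the 16 other settings the adjusted p of Ces3b lay between 0.0668 and 0.267.

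Ces3a and Ces3b are the closest pair among the 10, with 95.4% identical bases over 2046 aligned bases. The longest identical stretch was 194 bases, and 45 of the 1897 windows of 150 bases in the Ces3a transcript (2.37%) also occur in Ces3b. The other 8 members shared no such window with any carboxylesterase transcript. The ratio of Ces3b to Ces3a was 0.133, 0.0947 and 0.138 in Alkbh5-HKO livers and 0.149, 0.183 and 0.215 in Alkbh5flox/flox livers. It was lower in each Alkbh5-HKO liver, and reads shared by the pair make both values uncertain.

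**Figure D2:**
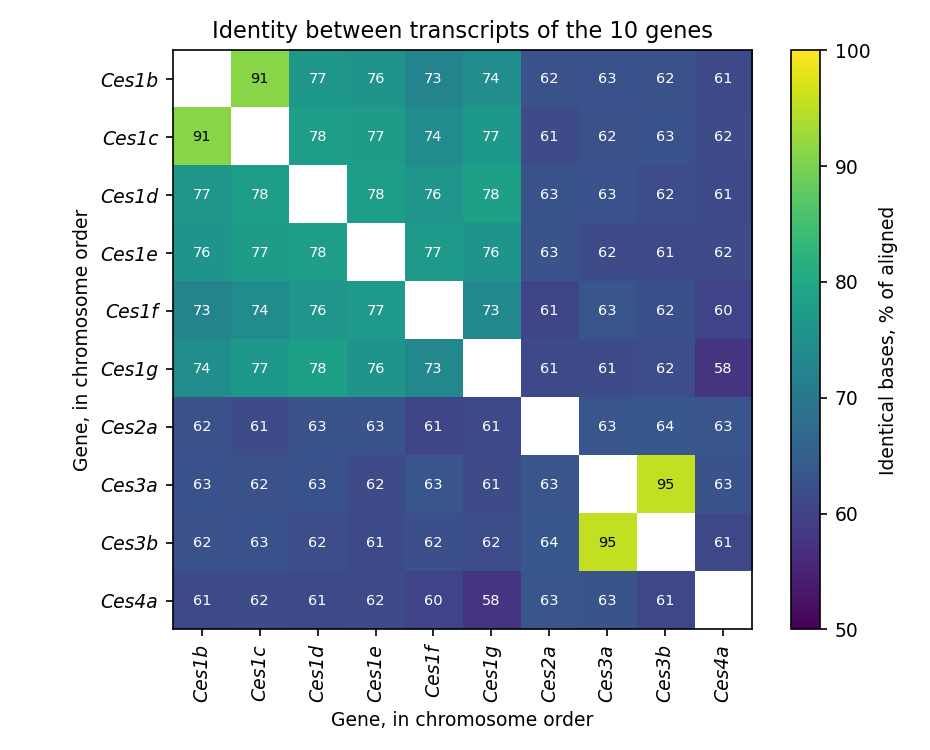
Percent of identical bases between the longest coding GENCODE M21 transcripts of each pair of the 10 genes, in chromosome order on both axes. Ces3a with Ces3b (95.4%) and Ces1b with Ces1c (91.2%) are the close pairs, and the lowest of the 45 pairs is Ces1g with Ces4a at 57.7%.

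Ces4a (gene 234677, chr8:105131800-105150109, plus strand, 14 exons) was the member with the lowest level and the widest difference. It was at 0.616, 0.269 and 0.466 FPKM in Alkbh5-HKO livers, against 5.81, 5.98 and 4.19 FPKM in Alkbh5flox/flox livers. The highest Alkbh5-HKO liver was far below the lowest Alkbh5flox/flox liver. Behind these values stood 24, 12 and 17 reads in Alkbh5-HKO libraries and 228, 202 and 167 reads in Alkbh5flox/flox libraries, the fewest of any member. Ces4a fell by 2.12 on the log2(FPKM + 1) scale (SE 0.17, limma BH adjusted p = 0.0167), and the ratio of mean FPKM was 11.8 in favour of Alkbh5flox/flox. With a mean of 0.450 FPKM in Alkbh5-HKO livers it reached the filter of 1 FPKM only through the Alkbh5flox/flox livers, so a gene at this level had to differ to be tested.

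The size of the Ces4a change depended on the scale, because the added 1 is large beside its level. With an added 0.1 the log2 fold change was -3.34, with an added 5 it was -0.92, and voom on recovered reads gave -3.60, and each of these passed. The call ended without Alkbh5-HKO library 1 (limma BH adjusted p = 0.0578) or 2 (0.0654), without Alkbh5flox/flox library 1 (0.0918) or 2 (0.0818), and with no filter (0.0734). Without Alkbh5-HKO library 3 or Alkbh5flox/flox library 3 it passed, and the log2 fold change lay between -2.26 and -2.03 whichever library was left out. Its start window (chr8:105131550-105131849, plus strand) is shown as that of the member with the widest difference, with capitals marking the AGGTCA half-site, which reads TGACCT on this strand and begins 29 bases before the start.
Ces4a: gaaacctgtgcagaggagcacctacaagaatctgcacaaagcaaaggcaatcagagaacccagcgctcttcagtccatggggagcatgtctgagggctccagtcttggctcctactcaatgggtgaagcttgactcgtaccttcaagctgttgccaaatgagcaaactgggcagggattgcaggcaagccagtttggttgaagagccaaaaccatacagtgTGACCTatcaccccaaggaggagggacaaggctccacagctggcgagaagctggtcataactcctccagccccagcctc

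**Figure D3:**
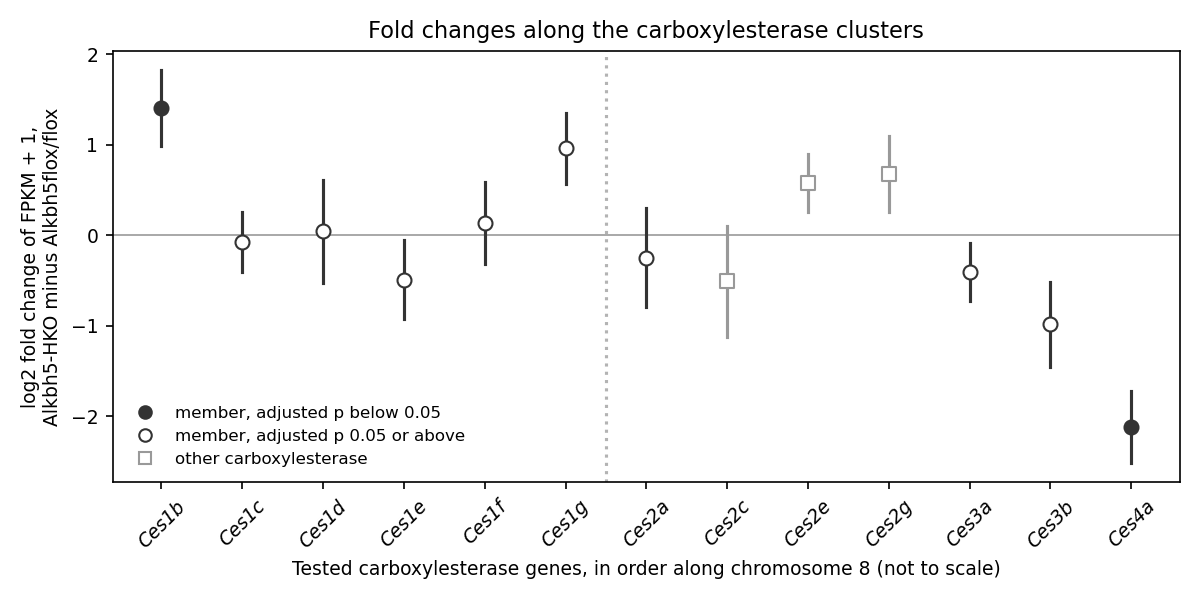
Log2 fold change of FPKM + 1, Alkbh5-HKO minus Alkbh5flox/flox, with 95% intervals from limma (n = 3 per genotype), for the 13 tested carboxylesterases in order along chromosome 8. The dotted line parts the Ces1 cluster from the Ces2 to Ces4 cluster, and the filled points Ces1b (1.40) and Ces4a (-2.12) are those past the threshold.

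Direction did not follow position in a simple way. Among the tested Ces1 genes, the outermost (Ces1b and Ces1g) lay above Alkbh5flox/flox and the genes between them had log2 values of -0.49 to 0.14. In the other cluster Ces3a, Ces3b and Ces4a lie next to each other and were each lower in all Alkbh5-HKO livers, at -0.41, -0.99 and -2.12. Beyond Ces4a the next tested gene, Cbfb, was at -0.01 (limma BH adjusted p = 0.987), and before Ces2a the next tested gene, Fam96b, was at -0.19 (0.543).

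The other 10 carboxylesterase genes were mostly near the limit of detection, and 3 of them were tested. Ces2e was at 97.6, 82.5 and 84.2 FPKM in Alkbh5-HKO livers, against 53.8, 62.5 and 59.3 FPKM in Alkbh5flox/flox livers, without overlap (log2 0.58, limma BH adjusted p = 0.106). Ces2g was at 28.6, 19.99 and 19.7 FPKM in Alkbh5-HKO livers, against 13.9, 15.1 and 12.1 FPKM in Alkbh5flox/flox livers, also without overlap (log2 0.68, limma BH adjusted p = 0.13). Both thus lay on the other side of their Alkbh5flox/flox level from Ces2a and Ces2c, although none of the 4 passed. Ces2c had a log2 value of -0.51 (limma BH adjusted p = 0.372), with overlap. Ces2b, a close copy of Ces2c (91.6% identical bases), was under the filter and had 14, 4 and 6 reads in Alkbh5-HKO libraries, against 58, 53 and 40 reads in Alkbh5flox/flox libraries. Ces1a, Ces2d-ps and Ces2h stayed below 0.5 FPKM in every library. Ces1h and Ces2f had at most 1 read in any library, and Ces5a had 0 in all 6.

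Summed over the 10 members, the level was 3411, 2946 and 3268 FPKM in Alkbh5-HKO livers, against 3464, 3765 and 3569 FPKM in Alkbh5flox/flox livers. Each Alkbh5-HKO liver lay below each Alkbh5flox/flox liver, and the ratio of means was 0.891. The genotypes overlapped when the members were taken as a share of all recovered reads, at 0.705%, 0.639% and 0.663% in Alkbh5-HKO livers and 0.673%, 0.715% and 0.790% in Alkbh5flox/flox livers. The 6 Ces1 members together averaged 1960.4 ± 206 FPKM in Alkbh5-HKO and 1879 ± 110 FPKM in Alkbh5flox/flox livers, while Ces3a and Ces3b together averaged 1094 ± 34.7 and 1529.9 ± 106 FPKM (SD, n = 3 each). The lower sum therefore lay with the Ces3 pair and not with the Ces1 genes.

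**Figure D4:**
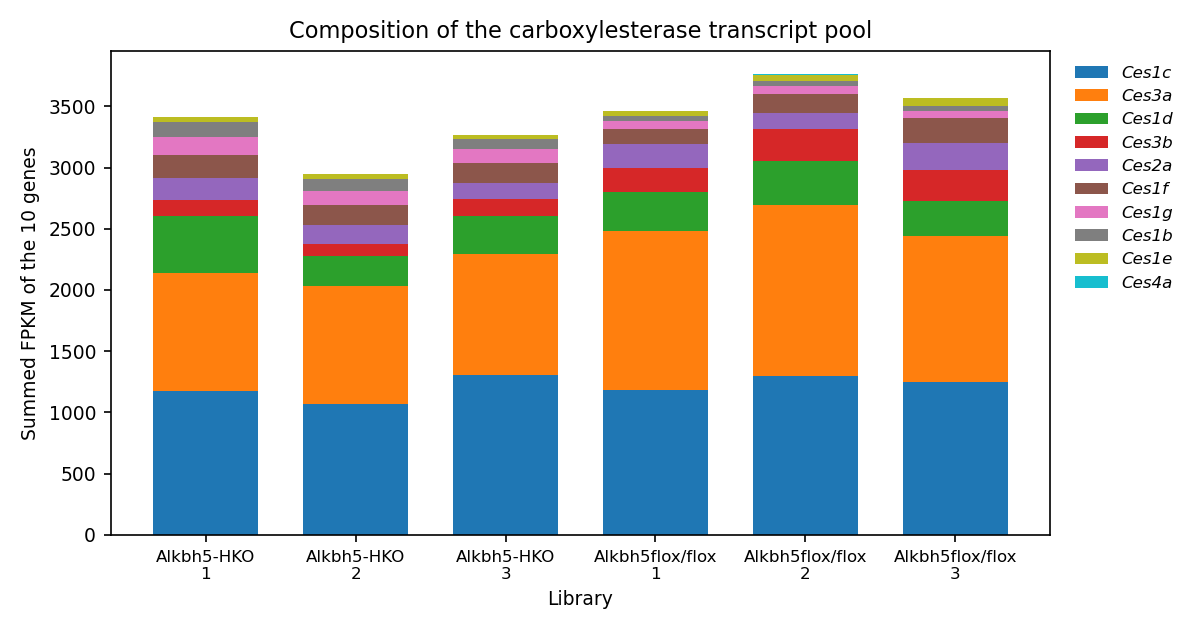
Summed FPKM of the 10 carboxylesterases in each library, stacked by gene, with Alkbh5-HKO libraries at the left. Ces1c and Ces3a make up most of each bar, and the bars reach 2946 to 3411 FPKM in Alkbh5-HKO and 3464 to 3765 FPKM in Alkbh5flox/flox livers.

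Ces1c and Ces3a together held 67.3% ± 4.02 of the summed level in Alkbh5-HKO livers and 70.5% ± 1.93 in Alkbh5flox/flox livers (SD, n = 3 each). Ces1b held 3.14% ± 0.581 in Alkbh5-HKO and 1.03% ± 0.065 in Alkbh5flox/flox livers, and Ces1g 3.91% ± 0.566 and 1.76% ± 0.104. The share of Ces3b was 3.68% ± 0.541 in Alkbh5-HKO and 6.50% ± 0.795 in Alkbh5flox/flox livers. By level the first 3 places were held by Ces1c, Ces3a and Ces1d in all libraries, with Ces1c first in each Alkbh5-HKO liver and Ces3a first in Alkbh5flox/flox livers 1 and 2. Ces1c and Ces3a averaged 1181 ± 117 and 975.3 ± 13.6 FPKM in Alkbh5-HKO livers, and 1242 ± 58.8 and 1295 ± 104 FPKM in Alkbh5flox/flox livers (SD, n = 3 each), so in Alkbh5flox/flox livers they lay within their spread of each other. Among the middle members, the place of Ces2a varied from library to library. Ces1f was above Ces3b in each Alkbh5-HKO liver and below it in each Alkbh5flox/flox liver, and the same held for Ces1b against Ces1e. Ces4a was last in all 6 libraries.

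For the members that passed, the tested genes outside the family with the closest profile were found from log2(FPKM + 1), centred over the 6 libraries. For Ces1b they were Usp18, Oas1a and Rtp4, at root mean square differences of 0.099, 0.142 and 0.168. Usp18, a protease for the ubiquitin-like protein ISG15, was at 48.8, 31.4 and 26.8 FPKM in Alkbh5-HKO livers, against 11.9, 13.6 and 10.9 FPKM in Alkbh5flox/flox livers. It shares with Ces1b the order of the Alkbh5-HKO livers, highest in liver 1 and lowest in liver 3, which the choice by profile favours. Rtp4 rose, with a log2 fold change of 1.37 (limma BH adjusted p = 0.0372), and Usp18 and Oas1a did not pass (0.0525 and 0.0629). Rtp4 kept its call in 10 of 16 other settings, and lost it without Alkbh5-HKO library 1 (0.0906) or 2 (0.109) or Alkbh5flox/flox library 1 (0.151) or 2 (0.137), while Usp18 passed in 5 of 16 and Oas1a in 1 of 15. For Ces4a the closest were the lipid droplet proteins Plin4 and Plin5 and the acyl-CoA synthetase Acsl1, at 0.247, 0.275 and 0.336. Plin4 was at 0.674, 0.387 and 1.28 FPKM in Alkbh5-HKO livers, against 6.76, 5.17 and 4.36 FPKM in Alkbh5flox/flox livers. Plin4 and Plin5 fell, with log2 fold changes of -1.87 and -2.03 (limma BH adjusted p = 0.0345 and 0.0373), and Acsl1 did not pass (0.0525). Plin4, at a mean below 1 FPKM in Alkbh5-HKO livers, was tested only through its level in Alkbh5flox/flox livers. Plin4 kept its call in 9 of 15 other settings and Plin5 in 10 of 16, and Acsl1 passed in 5 of 16. Both Plin4 (0.0993, 0.0954, 0.151 and 0.122) and Plin5 (0.111, 0.121, 0.161 and 0.148) lost the call without Alkbh5-HKO library 1 or 2 or Alkbh5flox/flox library 1 or 2. All these genes were picked for matching a member that passed in the same 6 libraries. Their direction and calls therefore follow in part from the choice and are no separate evidence. With 6 libraries and 10453 candidates, such closeness is a description.

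Other enzymes and factors of the same setting were taken as lists, beside which 5022 of the 10453 tested genes had a log2 value above 0 and 5431 below it. Of 14 tested lipases and lipid ester hydrolases, 4 were higher and 10 lower and none passed limma (median log2 -0.48); the widest were the monoglyceride lipase Mgll (20.5 ± 5.48 FPKM in Alkbh5-HKO, 53.8 ± 9.85 FPKM in Alkbh5flox/flox, log2 -1.37, limma BH adjusted p = 0.0546), the endothelial lipase Lipg (-1.12, SE 0.61, 0.399) and Abhd2 (-0.99, SE 0.43, 0.305). Mgll passed in 5 of 16 other settings. Lipg and Abhd2 overlapped between the genotypes and were at -1.87 and -1.49 without Alkbh5flox/flox library 3, and Lipg was at -0.74 without Alkbh5flox/flox library 2. Of 11 other hydrolases of drugs, lactones and epoxides, 7 were higher and 4 lower and none passed (median log2 0.30). Here the soluble epoxide hydrolase Ephx2 had a log2 value of -0.86 (SE 0.17), the esterase Esd 0.44 (SE 0.12) and butyrylcholinesterase Bche 0.68 (SE 0.26), which was 0.38 without Alkbh5-HKO library 1. Of 12 genes of lipoprotein assembly, 7 were higher and 5 lower and none passed (median log2 0.01). Apoa4 had a log2 value of 2.59 (SE 0.49, limma BH adjusted p = 0.0755). Its level was 437, 1451 and 478 FPKM in Alkbh5-HKO livers, against 163, 102 and 81.3 FPKM in Alkbh5flox/flox livers. With a library left out its log2 value was 2.04 to 2.90, lowest without Alkbh5-HKO library 2. Apoe was at -0.38 (SE 0.26) and Mttp, which loads lipid onto apolipoprotein B, at -0.28 (SE 0.21). Apoe and Mttp overlapped between the genotypes, and with a library left out they were at -0.59 to -0.11 and -0.45 to -0.10.

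Of 12 transcription factors and regulators that have been tied to carboxylesterase genes, 2 were higher and 10 lower and none passed (median log2 -0.31). The widest were the corepressor Nr0b2 (-0.78, SE 0.47), the xenobiotic receptor Nr1i2 (-0.70, SE 0.23) and the hepatocyte factor Hnf4a (-0.55, SE 0.19). Nr0b2 overlapped between the genotypes, at 9.06, 34.8 and 12.3 FPKM in Alkbh5-HKO livers, against 22.3, 38.8 and 25.2 FPKM in Alkbh5flox/flox livers. It was at -0.41 without Alkbh5-HKO library 1 and -1.32 without Alkbh5-HKO library 2, and Hnf4a was at -0.36 without Alkbh5-HKO library 1. Nr1i2 was at 27.3, 23.9 and 31.6 FPKM in Alkbh5-HKO livers, against 50.7, 57.3 and 31.9 FPKM in Alkbh5flox/flox livers, with a limma BH adjusted p of 0.198. Its groups were apart only by the small gap between Alkbh5-HKO liver 3 and Alkbh5flox/flox liver 3.

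**Figure D5:**
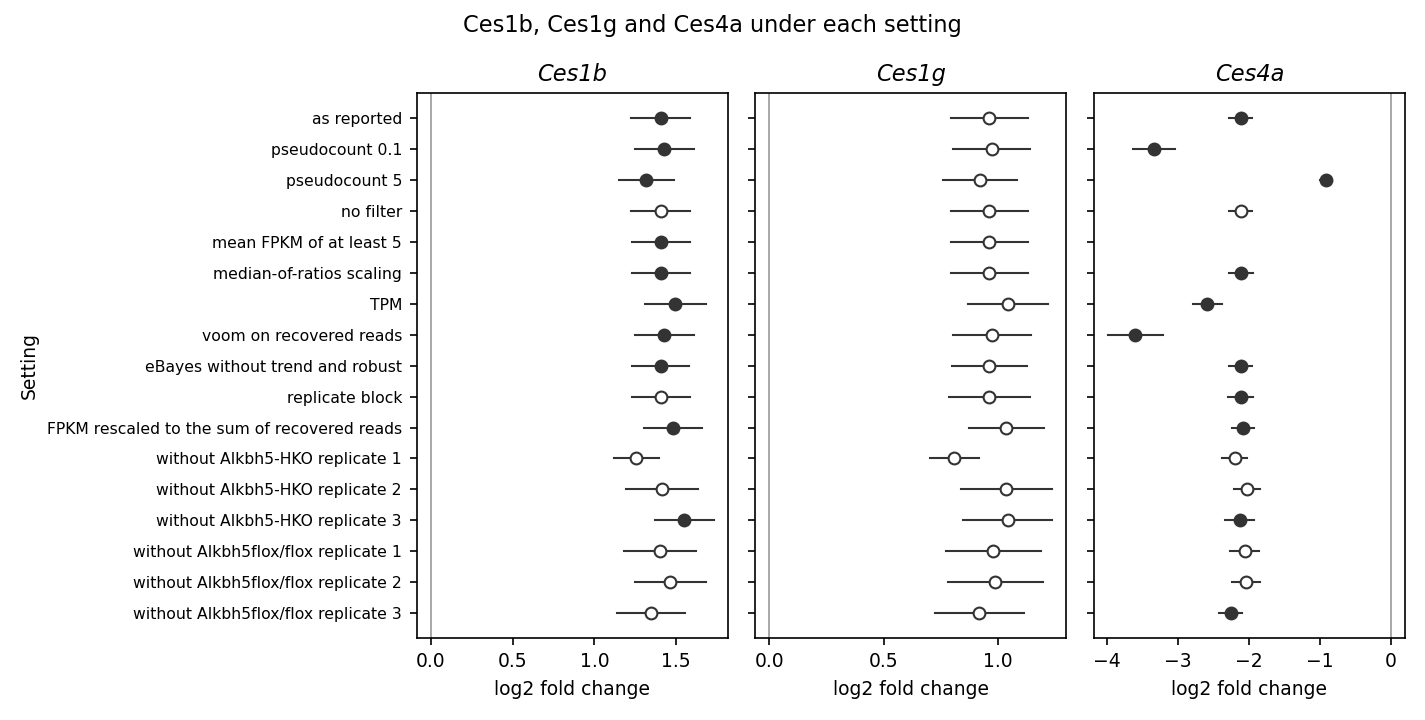
Log2 fold change, Alkbh5-HKO minus Alkbh5flox/flox, with 1 SE to each side, for Ces1b, Ces1g and Ces4a under each setting down the page, with points filled where the adjusted p is below 0.05. Ces1b and Ces1g keep to the right of 0 and Ces4a to the left under each setting, while filled points are lost in most fits that leave out a library, and Ces4a has no point at a mean FPKM of at least 5, where it was not tested.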

How the data were processed

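Poly(A) RNA from 6 mouse livers was sequenced as pairs of 150 bases on an Illumina instrument, per the labels' protocols. Per the submitters' processing notes and the series text, read pairs were aligned to GRCm38.p6 with HISAT2 2.0.5 and counted with featureCounts 1.5.0-p3. The authors' annotation, strand setting and rule for multi-mapping pairs are not stated. The authors deposited FPKM, 1 column per library, with gene length and position.

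FPKM times the deposited length was a whole multiple of 1 step for 100% of genes within 0.001, which gave the reads back. The library sizes implied by the deposited FPKM, 13890663 to 18337891, are not the sums of those reads, 14907384 to 17034754. Median-of-ratios scaling hardly changed the columns (median log2 shift 3.11e-05), so they already lay close to that scale. The test was limma 3.58.1 (R 4.3.3) with trend and robust options on log2(FPKM + 1), with BH adjustment over the 10453 genes whose FPKM averaged 1 or more. It was run first on simulated reads, scaled to sums of recovered reads and not to the implied library sizes. No result here rests on that run. Gene lists, motifs and members were chosen with earlier results of these data known. The genes named are the 10 members, Alkbh5, the other carboxylesterases, the 3 genes of each function list with the largest absolute log2 fold change (genes that passed came first, and none did), and the 3 closest profiles of each member that passed. Gusb, Cbfb and Fam96b and the cell type markers were named beyond that rule.

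Transcripts (GENCODE M21, GRCm38, longest coding one per gene) and RefSeq start windows were aligned end to end with free end gaps in Biopython 1.88 (Python 3.11.15), and figures were drawn with matplotlib 3.10.9. Alternatives were another pseudocount, filter, scaling (median of ratios, TPM), eBayes options, voom on recovered reads, the replicate number as a block, and each library left out. Rescaling to the sum of recovered reads was added after the data were seen. The labels do not say that livers of the same replicate number are paired. No library was a copy of another, with a chi-square of 28.3 to 63.0 per degree of freedom between libraries of a genotype.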

Additional observations from a re-analysis of the deposited data

How the results depend on the processing

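Alkbh5 passed limma in all 16 alternatives. Median-of-ratios scaling, among these, shared all 51 calls with the main fit, at a median log2 shift of 3.11e-05. It nearly repeats that fit and is no separate check in any count of settings given here. Of the 10 members 1 passed as higher and 1 as lower, and over all tested genes 28 and 23. With no filter these 4 counts were 0, 0, 0 and 1 (limma, with 2514 genes in either direction at an unadjusted p under 0.05), and a mean FPKM of at least 5 gave 0 members lower, since Ces4a was then not tested. A pseudocount of 0.1 gave 18 genes higher. With a library left out, members passed as higher in 0 to 1 and as lower in 0 to 1 cases per fit, and all genes in 0 to 29 and 1 to 38. The replicate block gave 0 members higher and 1 lower, and 1 gene higher and 8 lower over all, with Ces1b at a limma BH adjusted p of 0.0741, Rtp4 at 0.0744, Plin4 at 0.0741 and Plin5 at 0.106. Deviations of livers of the same number had an r over genes of 0.153, -0.145 and -0.0514. With 3 livers per genotype these values cannot exclude a pairing. Sign changes were limited to members near 0, and their cause was not tested: Ces1c at 0.000617 under TPM, and, with a library left out, Ces1d at -0.204 to 0.255 and Ces1f at -0.0358 to 0.312. Of the members' other values 143 kept direction and call and 12 lost the call. Of those of the other named genes 316 kept both, 16 gained a call and 18 lost it. The summed level of the members in Alkbh5-HKO over Alkbh5flox/flox livers was 0.863 to 0.928 with a library left out, 0.940 under TPM and 0.936 on the sum of recovered reads. The low reads of Ces4a in Alkbh5-HKO livers limit how well its fold change is known.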
